A study of Mus musculus with 39 samples.

Results

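The response of AB1-HA tumours to checkpoint antibodies alone was examined by comparing tumours from mice given immune checkpoint therapy (ICT) with tumours from mice given PBS. These were chosen by the treatment named in the sample labels, which gave 10 ICT and 10 PBS tumours, 20 of the 39 tumours of the series. AB1-HA is a murine mesothelioma line that carries influenza haemagglutinin as a marker antigen, and it was grown subcutaneously in BALB/c mice. ICT was 100 µg of anti-CTLA-4 together with 100 µg of anti-PD-L1, started on day 7. PBS was the vehicle control, and whether a PBS mouse also received the tretinoin vehicle is not stated for single mice. A tumour from each mouse was resected on day 9 and its RNA was sequenced in bulk, so all the tumours were sampled early after the first antibody dose. No tumour of either group received tretinoin, and the labels give no treatment outcome for any of them. Of the 39676 genes in the count table, 14155 had enough reads to be tested in these 20 tumours.

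CTLA-4 and PD-L1 restrain T cells. CTLA-4 competes with CD28 for B7 ligands on antigen presenting cells and is abundant on regulatory T cells, and PD-L1 on tumour and myeloid cells engages PD-1 on activated T cells. T cells and NK cells released from this restraint secrete interferon gamma, which acts through JAK kinases to switch on IRF1, guanylate binding proteins, antigen presentation genes, CXCR3 ligands and PD-L1 itself. Bulk RNA mixes tumour cells, stroma and leukocytes, so in everything below a change in the number of cells of a type and a change in RNA per cell cannot be told apart.

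The 20 libraries held 16155683 to 23114796 gene counts per tumour in the PBS group (median 18958882) and 14033046 to 21095905 in the ICT group (median 17002364). Tumours are called here by the number in their label, and the first digit of that number defines a series: PBS tumours belong to series 1 and 5 and ICT tumours to series 6 and 8, with 5 tumours in each. As no series holds both treatments, series and treatment cannot be told apart. The methods name mice of both sexes, but the 4 Y-linked genes had no more than 1 count in any tumour and Xist had at least 4684. Vim, a mesenchymal filament gene that this kind of line expresses, was at 3993 counts per 1000000 counts (CPM) on average in PBS tumours, whereas the mesothelial genes Wt1 and Krt7 averaged 0.612 and 0.666 CPM. A few libraries stood apart from their groups in leukocyte transcripts, ICT tumours 63 and 82 and PBS tumour 14, and counts are also given without them. Leaving them out takes more high tumours from the ICT group than from PBS, which by itself can lower leukocyte fold changes. CPM values are normalised by TMM over the 20 tumours. A gene is said to have risen or fallen where the edgeR quasi-likelihood test gave a Benjamini-Hochberg adjusted p below 0.05, and to be upregulated or downregulated where its log2 fold change was in addition at least 1 in size.

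The first principal component of the 500 most variable genes held 38.2% of their variance and separated most ICT tumours from PBS tumours. Scores on it averaged 9.61 ± 12.6 (SD, n = 10) in ICT and -9.61 ± 6.31 (SD, n = 10) in PBS tumours, a difference of 19.2 (permutation test, p = 0.00066), with 7 of 10 ICT tumours above every PBS tumour. ICT tumour 63 had the highest score at 31.8, ICT tumour 85 sat within the PBS range at -11.0, and PBS tumour 14 was the highest of its group at 5.29. The second component held 7.41% of the variance and its scores differed by -2.12 (permutation test, p = 0.451).

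**Figure D1:**
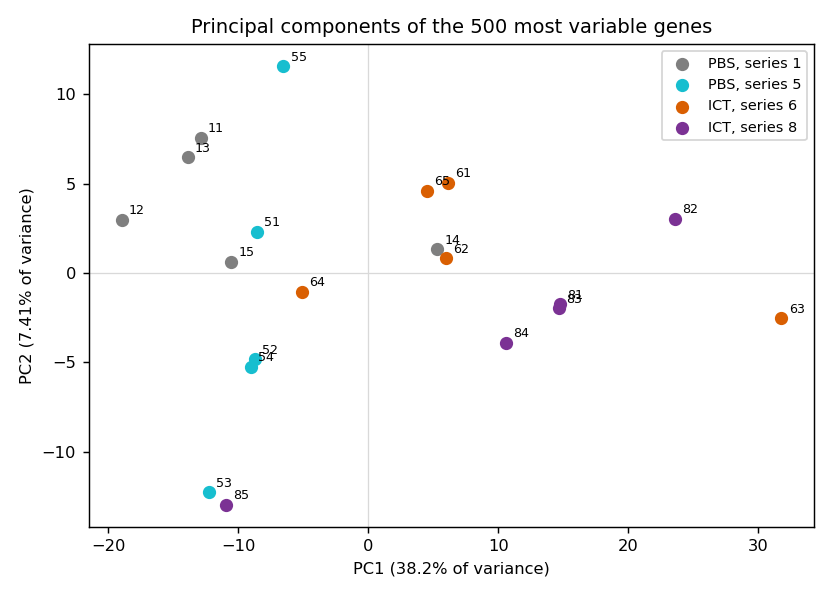
Scores of the 20 tumours on the first and second principal components (arbitrary units) of the 500 most variable genes, each point a tumour labelled by its number and coloured by series. Most ICT tumours lie to the right, with tumour 63 at 31.8 and tumour 85 at -11.0 on the first component, while PBS tumour 14 reaches 5.29.

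Across all genes tested the response was wider in number than in size. Of the 14155 genes 14.1% rose and 7.15% fell, with a median log2 fold change of 0.51 among those that rose and -0.26 among those that fell. Upregulated genes made up 2.28% and downregulated genes 0.0636% of those tested, 323 and 9 genes. Of the 323, 294 were above the PBS median in at least 9 ICT tumours and 155 in all 10. These counts follow in part from the call itself, which used the same values. Every ICT tumour was above every PBS tumour for 0.389% of genes (55 genes) and below every PBS tumour for 0.0706% (10 genes). The number upregulated fell to 205 without ICT tumour 63, rose to 401 without PBS tumour 14, and was 201 without tumours 63, 82 and 14. The median log2 fold change of all genes tested was -0.02, and 46.4% were above 0, which is the background for each group of genes described below.

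Interferon-inducible GTPases rose as a block. All 19 tested guanylate binding proteins (GBP) and immunity-related GTPases (IRG), which attack vacuoles and membranes of intracellular microbes, were upregulated, with a median log2 fold change of 1.56. Gbp2 (chromosome 3, 142620602-142638008, GRCm38) ran from 119 CPM through a median of 218 to 736 in PBS tumours, and from 118 through 824 to 1564 in ICT tumours. Its log2 fold change was 1.56 ± 0.38 (SE; edgeR, adjusted p = 0.00915). The groups overlapped, since 7 ICT tumours were above every PBS tumour whereas the lowest ICT value lay at the foot of the PBS range. Igtp, an IRG that guards host membranes (chromosome 11, 58199556-58207591), had a median of 163 CPM in PBS (80.7 to 490) and 600 in ICT tumours (79.4 to 993), a log2 change of 1.44 ± 0.37 (edgeR, adjusted p = 0.0111). Gbp4 changed by 1.91 ± 0.49 (edgeR, adjusted p = 0.0116). Members of these families share sequence, so reads may have been split between them and single members are less certain than the family. All 19 still passed without tumours 63, 82 and 14, 18 of them as upregulated.

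The transcription factors that relay interferon signals moved less. Of 18 tested genes of interferon signalling 16 rose and 3 were upregulated, with a median log2 fold change of 0.49. Irf1, an interferon-induced transcription factor (chromosome 11, 53770014-53778374), had a median of 218 CPM in PBS (145 to 478) and 495 in ICT tumours (146 to 923), a log2 change of 1.02 ± 0.27 (edgeR, adjusted p = 0.0127). Batf2 changed by 1.44 ± 0.34, Irf8 by 0.96 ± 0.24, Irf7 by 0.47 ± 0.12 and Irf9 by 0.36 ± 0.09 (edgeR, adjusted p = 0.00821, 0.00915, 0.00889 and 0.0109). The receptor subunit Ifngr1 did not pass, at 0.20 ± 0.09 (edgeR, adjusted p = 0.13). Antiviral effectors, the genes by which type I interferon blocks viral replication, rose in 19 of 30 cases with a median of 0.42, and only 1 was upregulated. Among those that did not pass were Mx1 at 0.23, Rsad2 at 0.22, Ifit1 at 0.31 and Usp18 at 0.24. Without tumours 63, 82 and 14 the antiviral genes that rose numbered 17 and the signalling genes 15. Of the interferon stimulated genes that the study itself listed, 69 of 82 rose, 20 as upregulated, with a median of 0.59. That list is the study's own and was applied by it to these samples. How its genes were chosen is not stated, so its count is not independent evidence of its direction.

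The promoters of these genes were searched for the letters of interferon response elements, since the genes moved together. The letters were those of GAS elements, which answer interferon gamma, searched here as TTCNNNGAA, and of ISRE elements, which IRF proteins bind, searched as GAAA and GAAA with any 2 bases between them, each on both strands and with overlaps between the motifs allowed, in RefSeq windows (GRCm38.p6) of 250 bases before to 50 bases after the gene start. A window was found for 9656 of the 14148 gene symbols tested. A gene with several windows counted as matched where any of them matched. A GAS match was present for 9.55% of all 27025 genes with a window and an ISRE match for 3.99%. Of the 12 GTPase genes with a window 7 held GAS letters and 11 held ISRE letters. Among the 20 antiviral genes with a window 6 held GAS and 14 ISRE letters. For the upregulated genes the shares were 18.8% and 10.8% of the 223 with a window. Of the interferon signalling genes with a window 6 held GAS letters and 2 ISRE letters out of 15, of MHC class I genes 2 and 4 of 16, and of MHC class II genes 1 and 1 of 8. Lists described further on gave 4 and 1 of 14 glucocorticoid and clock genes with a window, 0 and 1 of 16 hypoxia and glycolysis genes and 1 and 0 of 20 proliferation genes. GAS letters were thus about as frequent in the glucocorticoid and clock list as in the antiviral list. These are descriptions of letters and do not show binding. The windows of 3 genes whose values are given above follow, 5′ to 3′ on the plus strand, with matches in capitals. Gbp2 (chr3:142620413-142620712) has an ISRE match read from the opposite strand, Igtp (chr11:58199306-58199605) has a GAS match followed by an ISRE match, and Irf1 (chr11:53769764-53770063, 1 of its 2 listed starts) has a GAS match.
Gbp2: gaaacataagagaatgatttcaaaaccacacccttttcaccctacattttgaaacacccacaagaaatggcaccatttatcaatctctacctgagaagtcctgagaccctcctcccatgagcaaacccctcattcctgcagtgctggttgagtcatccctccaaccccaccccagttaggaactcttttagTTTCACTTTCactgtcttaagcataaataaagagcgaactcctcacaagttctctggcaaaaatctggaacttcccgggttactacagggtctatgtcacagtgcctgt
Igtp: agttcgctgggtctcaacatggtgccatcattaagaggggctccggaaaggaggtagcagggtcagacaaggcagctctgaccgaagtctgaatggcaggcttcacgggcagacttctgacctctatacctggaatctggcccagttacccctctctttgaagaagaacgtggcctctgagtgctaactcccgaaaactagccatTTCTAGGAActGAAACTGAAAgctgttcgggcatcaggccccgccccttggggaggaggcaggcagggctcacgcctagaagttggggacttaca
Irf1: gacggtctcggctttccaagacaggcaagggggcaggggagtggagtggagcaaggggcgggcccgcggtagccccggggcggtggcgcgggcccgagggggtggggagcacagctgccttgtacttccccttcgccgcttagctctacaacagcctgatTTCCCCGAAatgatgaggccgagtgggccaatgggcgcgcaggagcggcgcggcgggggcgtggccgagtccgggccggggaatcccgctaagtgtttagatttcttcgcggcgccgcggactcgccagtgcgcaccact

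Genes of antigen presentation rose in both classes. All 18 tested genes of the MHC class I pathway rose, with a median log2 fold change of 0.65 and none upregulated. B2m, the invariant light chain of class I, had a median of 1475 CPM in PBS (1325 to 2495) and 2338 in ICT tumours (1270 to 4041), a log2 change of 0.63 ± 0.18 (edgeR, adjusted p = 0.0176). H2-K1, a classical heavy chain, changed by 0.58 ± 0.16, the peptide transporter subunit Tap1 by 0.95 ± 0.25 and the immunoproteasome subunit Psmb9 by 0.99 ± 0.26 (edgeR, adjusted p = 0.0178, 0.0133 and 0.0132). In each of these 4 genes at least 1 ICT tumour lay below every PBS tumour, so the groups overlapped. Nlrc5, the class I transactivator, changed by 0.88 ± 0.25 (edgeR, adjusted p = 0.0196). Of 9 tested MHC class II genes 7 rose and 6 were upregulated, with a median of 1.36. H2-Ab1, a class II beta chain, had a median of 169 CPM in PBS (118 to 433) and 397 in ICT tumours (198 to 1362), a log2 change of 1.5 ± 0.35 (edgeR, adjusted p = 0.00795). The classical H2 genes share sequence, which makes their separate counts uncertain. The class II median was 0.94 without tumours 63, 82 and 14, and 7 genes still rose.

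Chemokines were among the groups with the largest shifts. Of 26 tested 18 rose, 15 as upregulated, and none fell, with a median log2 fold change of 1.06. Cxcl9, an interferon gamma induced ligand of CXCR3 that attracts activated T cells (chromosome 5, 92321347-92328079), had a median of 138 CPM in PBS (51.4 to 511) and 452 in ICT tumours (45.4 to 1333). Its log2 fold change was 1.74 ± 0.48 (edgeR, adjusted p = 0.0171), with 4 ICT tumours above every PBS tumour. The other CXCR3 ligands, Cxcl10 and Cxcl11, changed by 1.05 ± 0.32 and 1.68 ± 0.43 (edgeR, adjusted p = 0.0264 and 0.0109), the former call being lost without ICT tumour 63, in limma-voom and with no low-count filter. Ccl5, a T cell and NK cell attractant, changed by 1.37 ± 0.47 (edgeR, adjusted p = 0.0438), and this call was lost in 12 of the 20 fits that each left out 1 tumour and without tumours 63, 82 and 14.

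Ligands of CCR4, which draw regulatory and helper T cells, overlapped less between the groups. Ccl17 ran from 1.16 CPM through a median of 2.29 to 3.63 in PBS and from 3.95 through 10.4 to 22.5 in ICT tumours, a log2 change of 2.26 ± 0.30 (edgeR, adjusted p = 0.000113). Every ICT tumour was above every PBS tumour. Ccl22 had a median of 20.3 CPM in PBS (14.7 to 30.6) and 40.6 in ICT tumours (27.6 to 109), a log2 change of 1.23 ± 0.24 (edgeR, adjusted p = 0.00313). Ccl9, a macrophage-derived CC chemokine, did not overlap either and changed by 0.81 ± 0.10 (edgeR, adjusted p = 4.11e-05). The neutrophil attractants Cxcl1, Cxcl2 and Cxcl5 changed by 1.15 ± 0.21, 1.85 ± 0.31 and 1.01 ± 0.21 (edgeR, adjusted p = 0.00186, 0.000905 and 0.00415). Ccl2, which draws CCR2-bearing monocytes, changed by 1.16 ± 0.28 (edgeR, adjusted p = 0.00809). Cxcl13, the ligand that organises B cell follicles, did not pass at -0.71 ± 0.30 (edgeR, adjusted p = 0.0981). Chemokine genes that rose numbered 16 without tumours 63, 82 and 14, and none fell, although limma-voom over all 20 tumours called 1 fall.

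Both ligands of PD-1, including the target of an antibody given, rose. Cd274, which encodes PD-L1 (chromosome 19, 29367455-29388095), ran from 18.9 CPM through a median of 41.7 to 124 in PBS and from 26.2 through 142 to 531 in ICT tumours, a log2 change of 1.88 ± 0.43 (edgeR, adjusted p = 0.00688). Pdcd1lg2, which encodes PD-L2, had a median of 3.75 CPM in PBS (1.41 to 11.4) and 22.8 in ICT tumours (6.15 to 130), a log2 change of 3.18 ± 0.55 (edgeR, adjusted p = 0.00133). Of the 10 ICT tumours 6 were above every PBS tumour for Cd274 and 8 for Pdcd1lg2. The costimulatory ligand Cd86 and the receptor Cd40, both on antigen presenting cells, changed by 1.07 ± 0.25 and 1.0 ± 0.27 (edgeR, adjusted p = 0.00699 and 0.0154). Havcr2, which encodes TIM-3, changed by 0.52 ± 0.11 (edgeR, adjusted p = 0.00518), whereas the receptors Pdcd1 and Lag3 did not pass at 0.66 ± 0.26 and 0.52 ± 0.22 (edgeR, adjusted p = 0.0732 and 0.0948). Ctla4, whose product is the other antibody target, fell, as did the B7 family member Cd276 at -0.28 ± 0.08 (edgeR, adjusted p = 0.0133). In all, 13 of 26 checkpoint genes rose, 5 as upregulated, and 2 fell. These counts were 14 and 4 without tumours 63, 82 and 14.

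Some regulatory T cell genes fell. Of 13 markers on the list tested 3 fell, Foxp3, Ctla4 and Lrrc32, 1 rose and 9 did not pass. Foxp3, the lineage factor of these cells, ran from 11.8 CPM through a median of 15.4 to 20.04 in PBS and from 5.70 through 9.26 to 12.1 in ICT tumours, a log2 change of -0.80 ± 0.14 (edgeR, adjusted p = 0.000867). In 9 of 10 ICT tumours it was below every PBS tumour. Ctla4 had a median of 11.9 CPM in PBS (7.30 to 20.8) and 6.89 in ICT tumours (3.82 to 14.5), a log2 change of -0.77 ± 0.20 (edgeR, adjusted p = 0.0115). Izumo1r, the folate receptor 4 gene that regulatory T cells carry, is not on the list. It was named for the largest fall among called genes with a mean log2 CPM of at least 1, predicted genes aside. Over all genes that fell, the largest fall was 2.97 on the log2 scale. Izumo1r had a median of 3.08 CPM in PBS (2.43 to 4.73) and 1.26 in ICT tumours (0.480 to 2.55). Its log2 fold change was -1.30 ± 0.24 (edgeR, adjusted p = 0.00203), and 9 ICT tumours were below every PBS tumour. Lrrc32, which encodes the GARP docking receptor for latent TGF-beta, changed by -0.47 ± 0.10 (edgeR, adjusted p = 0.00395). The marker that rose was Tnfrsf9, the activation receptor 4-1BB that other activated lymphocytes also carry, at 0.86 ± 0.26 (edgeR, adjusted p = 0.0234), a call lost with no low-count filter. Without tumours 63, 82 and 14, 6 of the 13 fell and 1 rose, but tumours 63 and 82 were the highest ICT tumours in this list.

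Pan-T cell transcripts showed no change that passed the test. None of 18 T cell markers passed in either direction, although 14 had a log2 fold change above 0, with a median of 0.21. The summed level of the list ran from 181 CPM through 231 to 348 in PBS and from 170 through 220 to 606 in ICT tumours. Cd8a, the CD8 coreceptor, ran from 5.09 CPM through a median of 6.20 to 15.4 in PBS and from 3.61 through 6.27 to 33.5 in ICT tumours, a log2 change of 0.55 ± 0.40 (edgeR, adjusted p = 0.326). Cd4 changed by 0.19 ± 0.24 (edgeR, adjusted p = 0.584), and Ptprc, the pan-leukocyte CD45 gene, by 0.57 ± 0.22 (edgeR, adjusted p = 0.0723). Tumours 63 and 82 carried the high end. Without them and PBS tumour 14 the log2 fold change of Cd8a was -0.12 and that of Cd4 -0.21. In that fit 5 T cell markers fell, Cd3e, Cd3g, Cd6, Cd27 and Trac. As the ICT tumours highest in this list were the ones left out, these falls follow in part from that choice. At an unadjusted p below 0.05, 2 T cell markers were higher in edgeR and none lower, and DESeq2 and limma-voom called none. Cytotoxic effectors and NK cell markers were mixed. Of 15 effectors listed only 7 were found in the count table by their symbols, and these 7 were tested. The upregulated ones were 3, Gzmd, Nkg7 and Srgn. Gzmd, a granzyme of the NK and activated T cell cluster, had a median of 0.883 CPM in PBS (0.309 to 5.75) and 10.9 in ICT tumours (1.6 to 25.8), a log2 change of 2.95 ± 0.55 (edgeR, adjusted p = 0.00221), or 3.59 without PBS tumour 14. Nkg7, a granule membrane protein gene, changed by 1.02 ± 0.30, and the NK receptor genes Klrk1 and Ncr1 by 1.11 ± 0.32 and 0.75 ± 0.26 (edgeR, adjusted p = 0.0232, 0.0197 and 0.0418). Of 10 NK cell markers 4 rose, and 3 did without tumours 63, 82 and 14. The call for Ncr1 held in 6 of the 20 fits that each left out 1 tumour and that for Nkg7 in 18, lost without ICT tumour 63 or 82, and neither held with no low-count filter. DESeq2 called 6 of the NK cell markers and limma-voom 1. None of 10 B cell and plasma cell markers passed in edgeR or limma-voom, while 1 was higher at an unadjusted p below 0.05 and DESeq2 called it, the B cell receptor inhibitor Cd22. Without tumours 63, 82 and 14 the median of that list was -0.13 and 1 marker fell in edgeR, the B cell receptor subunit Cd79a. Tumours 63 and 82 were the highest ICT tumours in that list too.

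**Figure D2:**
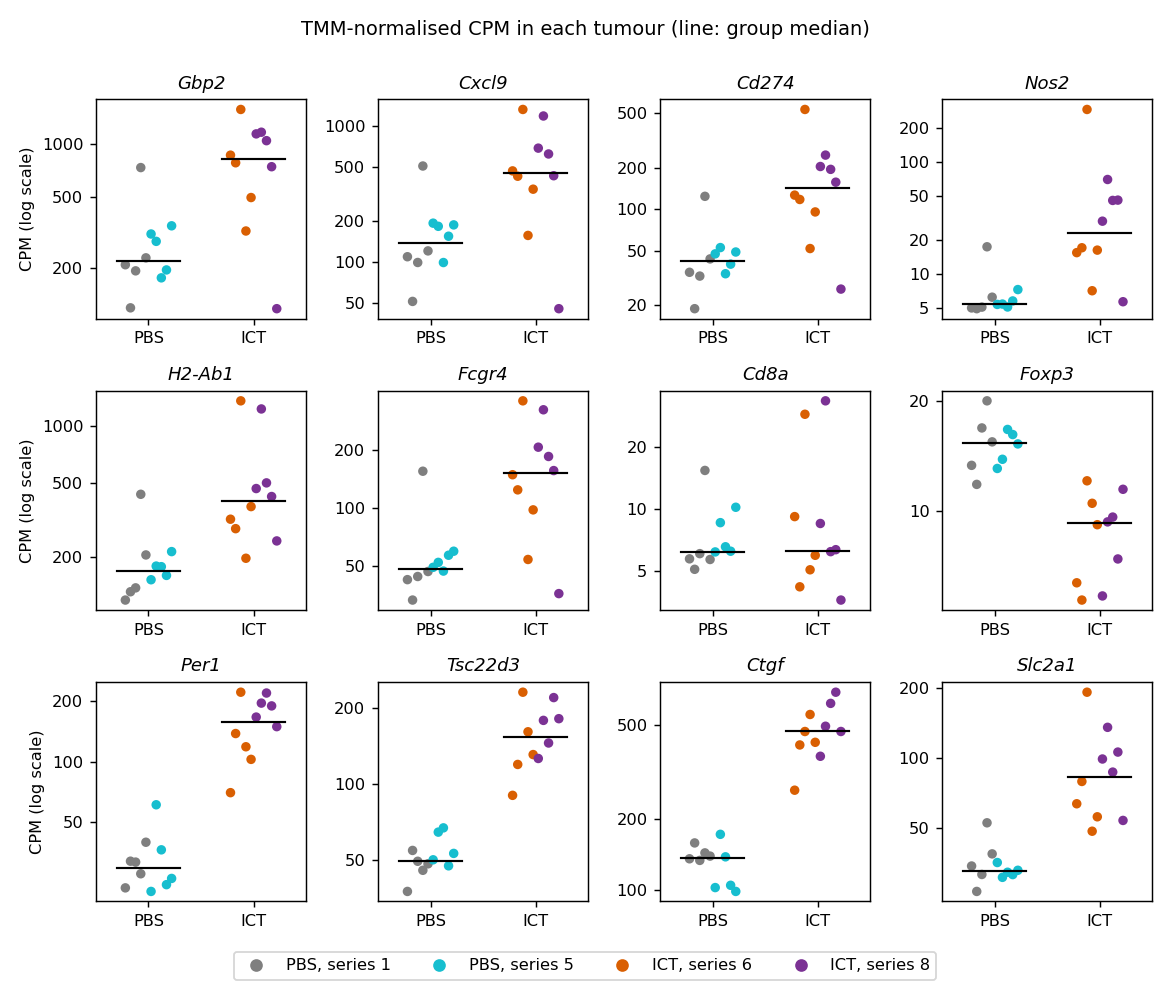
Normalised CPM (log axis) of 12 genes in the 10 PBS and 10 ICT tumours, each point a tumour and each line a group median. Foxp3 is lower in ICT tumours, Cd8a is high in a pair of ICT tumours with group medians of 6.20 CPM in PBS and 6.27 CPM in ICT, and Per1, Tsc22d3 and Ctgf do not overlap between the groups.

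Enzymes that make nitric oxide or break down arginine and tryptophan rose together. Of 14 tested 12 rose and 7 were upregulated, with a median log2 fold change of 1.02, and without tumours 63, 82 and 14 these were 12 and 4. Nos2, the inducible nitric oxide synthase of activated macrophages (chromosome 11, 78920787-78960254), ran from 4.92 CPM through a median of 5.39 to 17.5 in PBS and from 5.68 through 23.4 to 293 in ICT tumours. The log2 fold change was 3.01 ± 0.64 (edgeR, adjusted p = 0.00456), with 5 ICT tumours above every PBS tumour, and fell to 2.05 without ICT tumour 63. The tryptophan-degrading dioxygenases Ido1 and Ido2 changed by 2.67 ± 0.56 and 2.51 ± 0.44 (edgeR, adjusted p = 0.00429 and 0.0014). Slc7a2, a cationic amino acid transporter that brings arginine into macrophages, changed by 2.43 ± 0.46, the citrulline-recycling enzyme Ass1 by 1.18 ± 0.30 and Arg2 by 1.39 ± 0.33 (edgeR, adjusted p = 0.00254, 0.0103 and 0.00822). Acod1, which makes itaconate, changed by 2.18 ± 0.57, and Cybb, the catalytic subunit of the phagocyte NADPH oxidase, by 1.19 ± 0.33 (edgeR, adjusted p = 0.0123 and 0.0174).

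Myeloid genes rose in nearly every list. Of 9 monocyte markers 8 rose, of 14 macrophage markers 12, of 13 neutrophil markers 10 and of 25 myeloid lectins and scavenger receptors 22, and none fell in any of these lists. The medians were 0.97, 0.58, 1.10 and 0.78. The counts were 8, 11, 9 and 19 without tumours 63, 82 and 14. Ly6c2, a marker of inflammatory monocytes, had a median of 27.6 CPM in PBS (17.7 to 68.1) and 87.3 in ICT tumours (27.0 to 256), a log2 change of 1.66 ± 0.33 (edgeR, adjusted p = 0.00363). Chil3, a chitinase-like protein gene of monocytes and alternatively activated macrophages, changed by 2.63 ± 0.43 (edgeR, adjusted p = 0.000777). Ccr2, the monocyte chemokine receptor, changed by 0.51 ± 0.17 (edgeR, adjusted p = 0.0389), a call that held in 5 of the 20 fits that each left out 1 tumour. The broad macrophage genes Csf1r and C1qa changed by 0.47 ± 0.11 and 0.58 ± 0.14 (edgeR, adjusted p = 0.00593 and 0.00821). Among neutrophil genes the receptors Cxcr2 and Csf3r changed by 1.34 ± 0.25 and 1.10 ± 0.24, and the calprotectin subunits S100a8 and S100a9 by 1.13 ± 0.24 and 1.24 ± 0.26 (edgeR, adjusted p = 0.00183, 0.00456, 0.004 and 0.00443).

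All 8 tested Fc receptor genes rose, with a median log2 fold change of 0.85, and all 8 did so without tumours 63, 82 and 14. These receptors bind the constant part of antibodies, including those given as treatment. Fcgr4, the activating receptor for mouse IgG2 (chromosome 1, 171018920-171029761), had a median of 48.1 CPM in PBS (33.3 to 155) and 150 in ICT tumours (35.9 to 358), a log2 change of 1.52 ± 0.37 (edgeR, adjusted p = 0.00891). Fcgr3, Fcgr1 and the inhibitory Fcgr2b changed by 1.18 ± 0.20, 0.89 ± 0.21 and 0.95 ± 0.17 (edgeR, adjusted p = 0.00108, 0.00709 and 0.00174). The Fcgr genes share sequence and their separate counts are uncertain to that extent. Clec7a, the beta-glucan receptor Dectin-1, changed by 2.22 ± 0.35, and Tarm1, an activating receptor of neutrophils and other myeloid cells, by 2.44 ± 0.38 (edgeR, adjusted p = 0.000765 and 0.000577). The complement component C3 had a median of 394 CPM in PBS (181 to 774) and 1076 in ICT tumours (455 to 4823), a log2 change of 1.90 ± 0.40 (edgeR, adjusted p = 0.00462). Of 21 complement genes 15 rose and none fell, and of 23 genes of Toll-like receptors and the inflammasome 19 rose and none fell. Of 14 dendritic cell markers 7 rose, among them Batf3, the factor required by cross-presenting dendritic cells, at 1.95 ± 0.31, and Clec9a, a receptor of the same cells, at 0.86 ± 0.25 (edgeR, adjusted p = 0.000692 and 0.0206).

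Genes of alternatively activated macrophages rose alongside the interferon genes. Of 11 tested 10 rose and 6 were upregulated, with a median log2 fold change of 1.10. The largest change in this list, 3.18, equals that of Pdcd1lg2 in the checkpoint list. Lists share members, as with Ctla4, counted in both the checkpoint and the regulatory T cell list, so their counts are not separate evidence. The mean of the list, as log2(CPM + 1) relative to the PBS mean, was 0.303 to 1.89 in ICT tumours and above every PBS tumour in all 10. Mgl2, a galactose lectin of macrophages and dendritic cells, changed by 1.53 ± 0.21 (edgeR, adjusted p = 0.000226), and Mertk, a receptor for apoptotic cells, had a median of 16.8 CPM in PBS (14.6 to 20.5) and 30.1 in ICT tumours (26.4 to 84.2), a log2 change of 1.22 ± 0.19 (edgeR, adjusted p = 0.000635). Neither gene overlapped between the groups. Of the 11, 9 rose without tumours 63, 82 and 14.

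Some genes that glucocorticoids induce were among those that separated the groups most cleanly, although their list as a whole did not shift. Every ICT tumour was above every PBS tumour for 55 genes, 0.389% of those tested. None of the 55 belonged to the GTPase, interferon signalling, antiviral, MHC class I or MHC class II lists. These lists hold 19, 18, 30, 18 and 9 tested genes, too few at that share for the absence to be read as a result about them. Per1, a circadian repressor that glucocorticoids also induce (chromosome 11, 69095217-69109960), ran from 22.5 CPM through a median of 29.5 to 60.8 in PBS and from 70.0 through 158 to 222 in ICT tumours, a log2 change of 2.28 ± 0.22 (edgeR, adjusted p = 3.37e-06). Tsc22d3, the glucocorticoid-induced leucine zipper gene (chromosome X, 140539528-140600659), had a median of 49.9 CPM in PBS (37.6 to 67.2) and 154 in ICT tumours (90.4 to 232), a log2 change of 1.61 ± 0.15 (edgeR, adjusted p = 1.78e-06). Dusp1, a phosphatase that turns off MAP kinases, had a median of 18.7 CPM in PBS (15.6 to 23.6) and 53.9 in ICT tumours (41.5 to 86.0), a log2 change of 1.6 ± 0.13 (edgeR, adjusted p = 2.55e-07). Sgk1 and Fkbp5, further glucocorticoid-responsive genes, changed by 0.67 ± 0.08 and 0.64 ± 0.17 (edgeR, adjusted p = 4.11e-05 and 0.0146). The metallothioneins Mt1 and Mt2, which metals and glucocorticoids induce, changed by 1.17 ± 0.16 and 1.53 ± 0.19 (edgeR, adjusted p = 0.000144 and 5.41e-05). Clock output genes moved the other way, Per3 at -0.53 ± 0.13, Nr1d2 at -0.38 ± 0.09 and Tef at -0.43 ± 0.10 (edgeR, adjusted p = 0.01, 0.00601 and 0.0068). Of the 16 genes in the glucocorticoid and clock list 5 rose, 2 as upregulated, and 4 fell. The median log2 fold change was 0.04, with 8 genes above 0, and 2 had every ICT tumour above every PBS tumour. Without tumours 63, 82 and 14, 5 rose and 5 fell. The hour of resection is not given in the labels.

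Stress and early response genes rose with them. Of 15 immediate early and heat shock genes 9 rose, 4 as upregulated, with a median log2 fold change of 0.40, and 9 also rose without tumours 63, 82 and 14. Atf3, a stress-induced transcription factor, changed by 2.05 ± 0.28, and the inducible heat shock genes Hspa1a and Hspa1b, which are near-identical copies, by 1.28 ± 0.19 and 0.98 ± 0.16 (edgeR, adjusted p = 0.000183, 0.00028 and 0.000722). Ctgf, a secreted matricellular protein gene induced by YAP and TGF-beta (chromosome 10, 24595442-24598683), ran from 98.8 CPM through a median of 137 to 172 in PBS and from 264 through 467 to 684 in ICT tumours. Its log2 fold change was 1.84 ± 0.14 (edgeR, adjusted p = 2.55e-07), with no overlap. The related Cyr61 changed by 0.63 ± 0.09 and the lysyl oxidase-like gene Loxl3 by 0.76 ± 0.10 (edgeR, adjusted p = 0.000232 and 8.54e-05). Cebpb, Cebpd and Vdr, chosen after their values were seen, encode transcription factors induced in inflammation and the vitamin D receptor. They changed by 1.59 ± 0.21, 0.99 ± 0.11 and 1.40 ± 0.22 (edgeR, adjusted p = 0.000118, 2.81e-05 and 0.000641).

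Hypoxia and glycolysis genes rose without exception among the 17 tested. The median log2 fold change was 0.95 with 8 upregulated, and all 17 rose without tumours 63, 82 and 14, with a median of 0.74. Slc2a1, the glucose transporter GLUT1, had a median of 32.5 CPM in PBS (26.6 to 52.5) and 82.9 in ICT tumours (48.3 to 192), a log2 change of 1.41 ± 0.22 (edgeR, adjusted p = 0.00063). Ankrd37, a HIF-1 target, had a median of 2.08 CPM in PBS (0.885 to 4.51) and 7.73 in ICT tumours (6.15 to 15.7), a log2 change of 2.08 ± 0.23 (edgeR, adjusted p = 2.16e-05), and did not overlap. Adm, which encodes the vasodilator adrenomedullin, did not overlap either and changed by 1.19 ± 0.15 (edgeR, adjusted p = 4.11e-05). The lactate exporter Slc16a3 changed by 1.73 ± 0.30, the mitophagy receptor Bnip3 by 1.21 ± 0.20 and Vegfa by 0.75 ± 0.15 (edgeR, adjusted p = 0.00121, 0.000904 and 0.00288). Ldha, the abundant lactate dehydrogenase subunit, changed by 0.34 ± 0.06 (edgeR, adjusted p = 0.000734). The mean of the list relative to the PBS mean was 0.351 to 1.72 in ICT tumours, above every PBS tumour in 9 of 10.

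**Figure D3:**
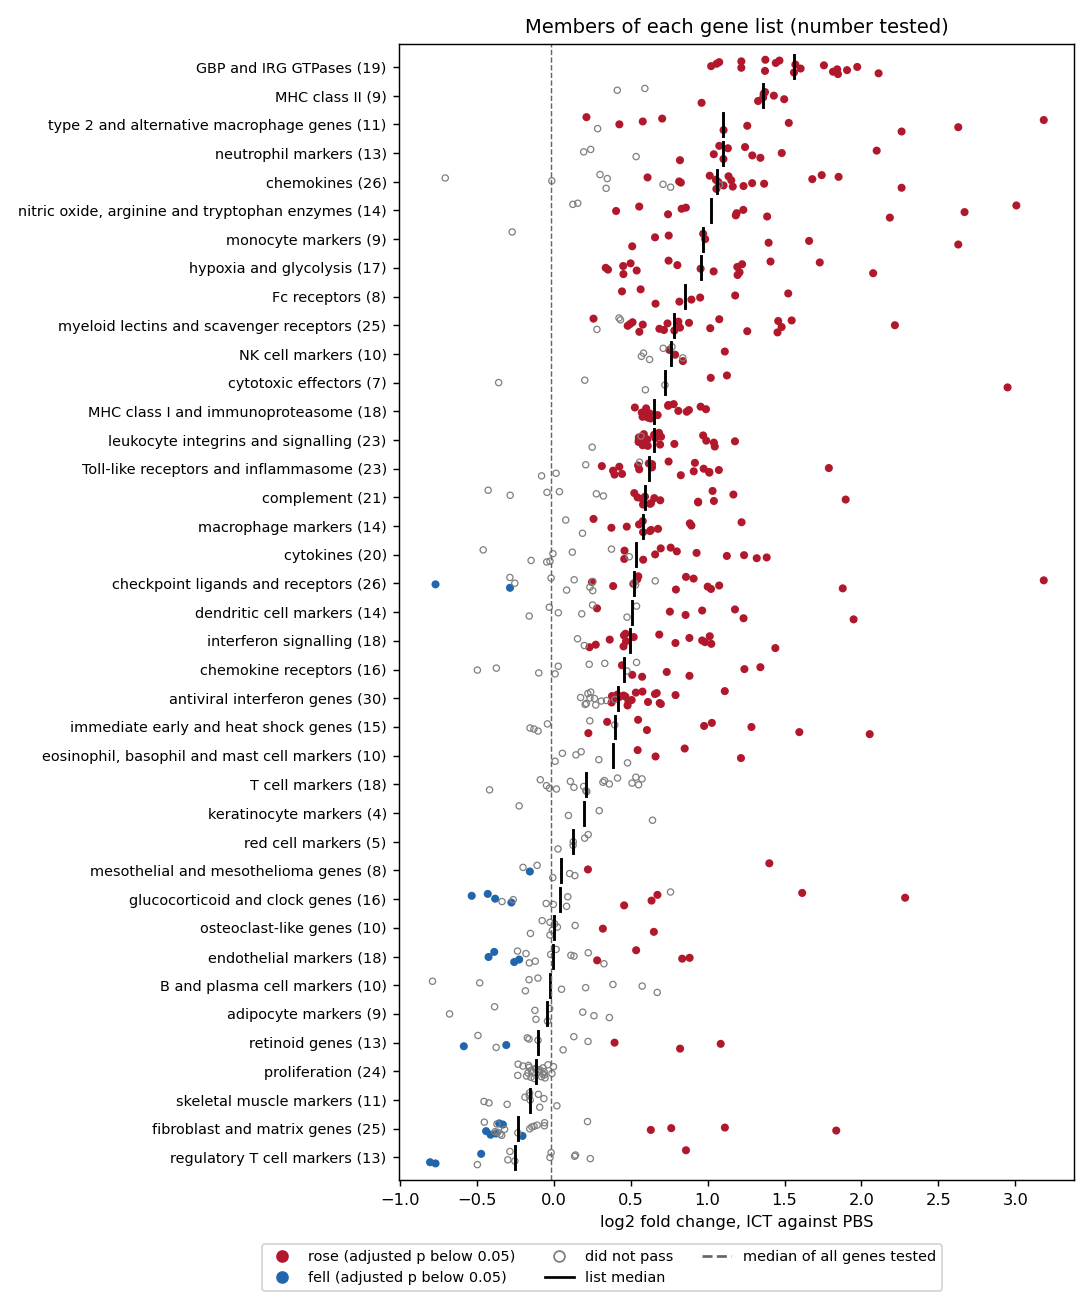
Log2 fold change (ICT over PBS) of each tested gene in 39 gene lists, 1 dot per gene, with the dashed line at the median of all genes tested. Most dots of the GTPase, class II, chemokine, neutrophil and hypoxia lists lie to the right of the line. The proliferation list has its median to the left of the line, and no dot of it passes the test.

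Further genes were named by the size of their rise or by the lack of overlap between the groups. They belong to no list used here, apart from Hdc, which is on the neutrophil list. F10, which encodes coagulation factor X, had a median of 2.27 CPM in PBS (0.442 to 6.55) and 18.8 in ICT tumours (4.61 to 75.7), a log2 change of 3.24 ± 0.48 (edgeR, adjusted p = 0.000456). F7, which encodes factor VII, changed by 2.79 ± 0.41 (edgeR, adjusted p = 0.00031). All but 1 of the ICT tumours were above every PBS tumour for F10 and 8 were for F7. Serpina3g and Serpina3f, protease inhibitor genes of a cluster of near copies that inflammation induces, each changed by 2.49 ± 0.51 (edgeR, adjusted p = 0.00419 and 0.00395). Hdc, the histidine decarboxylase that makes histamine, changed by 1.29 ± 0.17, and Acer2, an alkaline ceramidase gene, by 1.6 ± 0.19 (edgeR, adjusted p = 0.000113 and 3.46e-05). Other genes with no overlap and the smallest adjusted p were Rab44 at 1.26, Dnajb13 at 1.53, Plet1 at 2.04, Slc10a6 at 1.64 and the signalling adaptor Dok2 at 1.08. Ly6i, from a family whose members share sequence, changed by 2.39 ± 0.75 (edgeR, adjusted p = 0.0294). The call was lost in 3 of the 20 fits that each left out 1 tumour, in limma-voom and with no low-count filter, and the log2 fold change was 1.67 without ICT tumour 63 and 3.25 without PBS tumour 14.

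The fibroblast and matrix list had more falls than rises, and its falls were small. Of 25 genes 6 fell and 4 rose, 2 as upregulated, with a median log2 fold change of -0.23. The changes ran from -0.45 to 1.84, the latter that of Ctgf, given above. Without tumours 63, 82 and 14, 5 fell and 3 rose. DESeq2 and limma-voom each called 9 falls in this list. Col1a2, a chain of type I collagen, had a median of 5226 CPM in PBS (4288 to 6729) and 4028 in ICT tumours (2953 to 5947), a log2 change of -0.41 ± 0.11 (edgeR, adjusted p = 0.0116). Col6a3 and Sparc, also of the matrix, changed by -0.44 ± 0.12 and -0.36 ± 0.10, and the pericyte and fibroblast receptor Pdgfrb by -0.33 ± 0.08 (edgeR, adjusted p = 0.0173, 0.0147 and 0.00688). Col1a1 did not pass at -0.34 ± 0.15 (edgeR, adjusted p = 0.115). The named downregulated genes besides Izumo1r were Dio3, which inactivates thyroid hormone, at -1.23 ± 0.24, C1qtnf3 at -1.11 ± 0.24, the angiotensin receptor Agtr2 at -1.0 ± 0.25 and the growth factor Ptn at -1.0 ± 0.29 (edgeR, adjusted p = 0.00271, 0.00483, 0.00972 and 0.0215). The myofibroblast gene Lrrc15 and the Notch target Heyl, chosen after their values were seen, changed by -0.96 ± 0.18 and -0.92 ± 0.18 (edgeR, adjusted p = 0.00237 for each).

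Genes with every ICT tumour below every PBS tumour changed by less than 1 on the log2 scale. The following 6 of the 10, also chosen after their values were seen, were Smad3, the TGF-beta signal transducer, at -0.23 ± 0.04, the endothelin receptor Ednra at -0.55 ± 0.09, Kif26a at -0.74 ± 0.12, the cAMP-activated exchange factor Rapgef3 at -0.46 ± 0.08, Col8a1 at -0.45 ± 0.09 and Pcdh18 at -0.55 ± 0.10. Smad3 ran from 94.7 CPM through a median of 99.4 to 110 in PBS and from 76.7 through 85.7 to 93.2 in ICT tumours (edgeR, adjusted p = 0.000553). Endothelial genes split, with 4 of 18 rising and 4 falling. Kdr, the main VEGF receptor, and Tek, the angiopoietin receptor, fell by 0.42 and 0.39 on the log2 scale, while the decoy VEGF receptor Flt1 and the adhesion molecule Icam1 changed by 0.83 ± 0.16 and 0.88 ± 0.24 (edgeR, adjusted p = 0.004, 0.00844, 0.00246 and 0.0143). None of 24 proliferation genes passed in edgeR, DESeq2 or limma-voom, and 3 were lower at an unadjusted p below 0.05, yet each of the 24 had a log2 fold change below 0, with a median of -0.12. Mki67, the proliferation antigen, had a median of 759 CPM in PBS (622 to 810) and 632 in ICT tumours (505 to 796), a log2 change of -0.16 ± 0.07 (edgeR, adjusted p = 0.12). Without tumours 63, 82 and 14, the median of that list was -0.03 and 1 of its genes fell. Of 13 retinoid genes, relevant because other mice of the series received tretinoin, 3 rose and 2 fell. Cyp26b1, which degrades retinoic acid, and the retinal reductase Dhrs3 changed by 1.08 ± 0.24 and 0.40 ± 0.10, and the retinoic acid binding protein Crabp1 by -0.58 ± 0.18 (edgeR, adjusted p = 0.00527, 0.00788 and 0.0235). The call for Crabp1 was lost with all 39 tumours in the fit.

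Markers of tissue carried along at dissection were examined next. None of 11 skeletal muscle, 4 keratinocyte, 9 adipocyte or 5 red cell markers passed in edgeR, DESeq2 or limma-voom, and none reached an unadjusted p below 0.05. The summed level of the muscle list ran from 454 CPM through 1079 to 2438 in PBS and from 436 through 990 to 1764 in ICT tumours, so muscle was present in both groups. The values depended on the PBS series, which was not tested. The median log2 fold change of the muscle list was 0.68 and 0.60 for ICT series 6 and 8 against PBS series 1, but -0.61 and -0.76 against PBS series 5. Adipocyte medians were 0.59 and 0.49 against series 1 and -0.445 and -0.485 against series 5. No muscle or adipocyte marker passed in any of these comparisons. Myeloid and NK cell markers moved with the interferon, enzyme and Fc receptor genes. The summed NK cell list, all 10 of whose tested members had a log2 fold change above 0, ran from 55.6 CPM through 66.2 to 144 in PBS and from 47 through 120 to 345 in ICT tumours, with its mean relative to PBS lowest in ICT tumour 85 (-0.514) and highest in tumour 63 (1.89). The summed neutrophil list ran from 257 CPM through 381 to 673 in PBS and from 338 through 573 to 904 in ICT tumours. The part of myeloid and NK cell numbers in those results was not tested.

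For most genes ICT tumours differed among themselves more than PBS tumours did. The SD of log2(CPM + 1) within a group was larger in ICT for 80% of genes tested, with medians of 0.195 in ICT and 0.139 in PBS. The GTPase list had medians of 1.08 and 0.696, and the T cell list 0.679 and 0.293. Tissue markers went the other way, with a larger SD in ICT for 1 of 11 skeletal muscle, 4 of 9 adipocyte and 0 of 5 red cell markers. Genes move together, so these shares do not count separate events. Relative to the PBS mean, the mean of the GTPase list ran from -1.08 in ICT tumour 85 to 2.71 in tumour 63, and from -1.10 in PBS tumour 12 to 1.49 in PBS tumour 14, so 5 ICT tumours were above every PBS tumour. The T cell list was above every PBS tumour in 2 ICT tumours, 63 and 82. Tumour 85, at the foot of the GTPase list, was still above every PBS tumour in the hypoxia list at 0.467 and in the alternative macrophage list at 1.03. Proliferation genes were lowest in tumour 63, at -0.706. Of the 40 lists, tumour 85 was below the PBS mean in 21, tumour 64 in 19, and tumours 63 and 82 in 3 each.

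**Figure D4:**
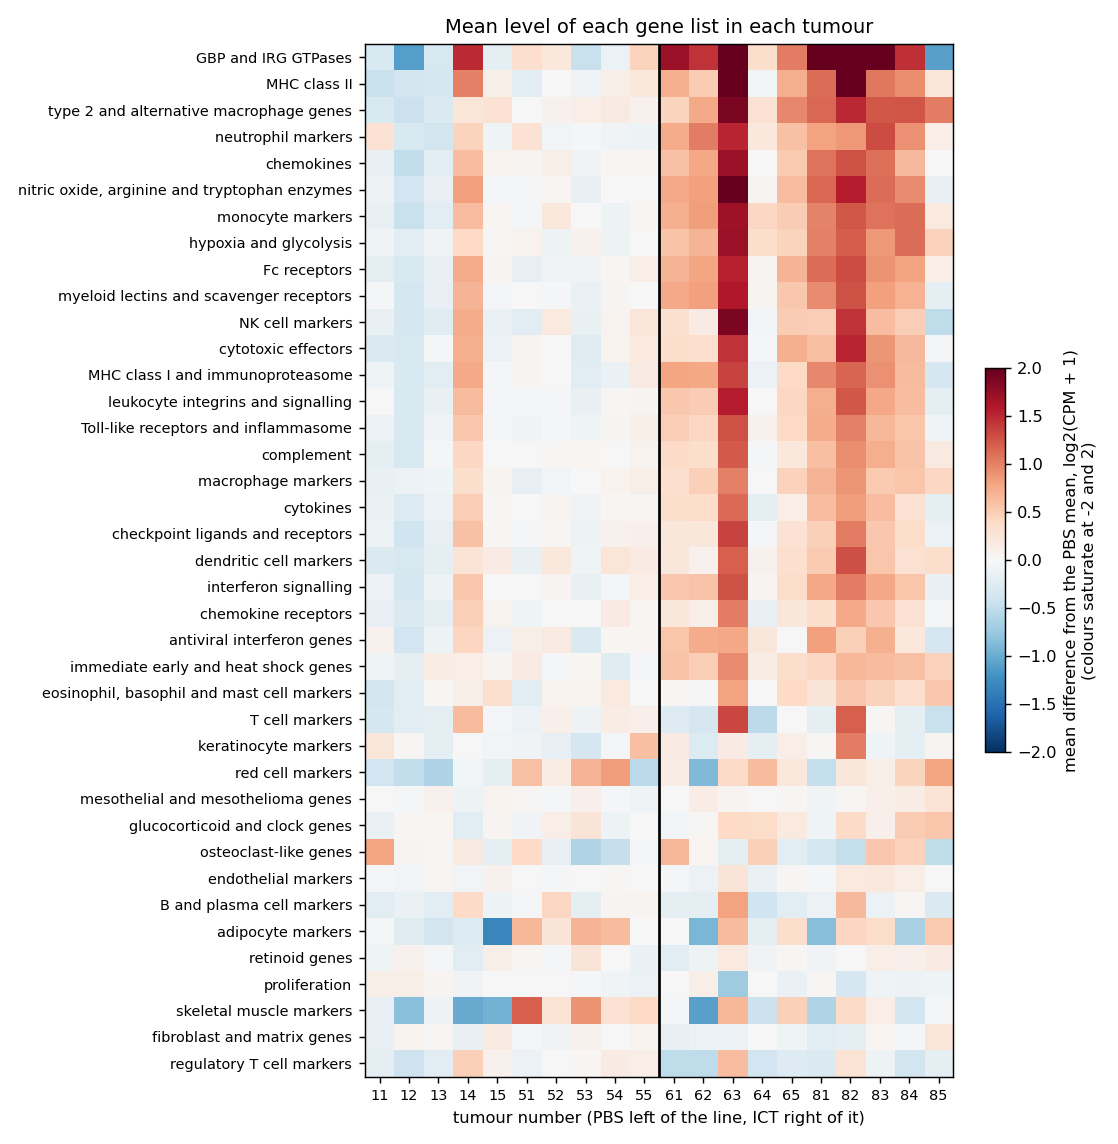
Mean log2(CPM + 1) of the genes of each of 39 lists in each of the 20 tumours, as the difference from the PBS mean, with colours saturating at 2 in either direction. Tumour 63 is high in most leukocyte lists and lowest in proliferation, tumour 85 is low in the GTPase list at -1.08, and PBS tumour 14 is high in it at 1.49.

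Each ICT series was also compared with each PBS series, 5 against 5 tumours. Series 8 gave 268 upregulated and 26 downregulated genes against series 5, and 98 and 2 against series 1. Series 6 gave 4 and 1 against series 5, and 9 and 0 against series 1. Among the 150 named genes that passed over all 20 tumours, 2 passed in all 4 of these comparisons, Dusp1 and Ctgf. All 150 had the same sign in all 4. These genes were called on the same tumours, so their shared sign is not separate evidence. The GTPase list had 0 genes rising in 3 of the comparisons and 2 in the other. Its medians lay between 1.46 and 1.57, close to the median over all tumours, which was taken from the same tumours. Mean levels of Gbp2 were 297 and 262 CPM in series 1 and 5, and 806 and 841 CPM in series 6 and 8. Per1 averaged 30.7 and 34 CPM in the PBS series, and 130 and 184 CPM in the ICT series.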

How the data were processed

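RNA from frozen AB1-HA tumours was sequenced in bulk. The authors deposited whole-number counts per gene, made with HISAT2 2.0.4 after bcl2fastq 2.20.0.422 (submitters' processing notes) and SummariseOverlaps, on a genome that the study names mm11. Strand setting and treatment of multi-mapped reads are not given in the sources used here. Of the gene IDs 92.55% matched GENCODE M21 (GRCm38) with their version, and coordinates are printed only for these.

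Counts of the 10 ICT and 10 PBS tumours were filtered with filterByExpr, scaled by TMM and tested with the robust quasi-likelihood test of edgeR 4.0.16 in R 4.3.3, with Benjamini-Hochberg adjustment over 14155 genes. Standard errors were derived from the log2 fold change and its F statistic. Principal components used variance stabilised values (DESeq2 1.42.0), and their scores were compared by a two-sided permutation test with 100000 resamples. The p-values measure the spread between tumours. No 2 libraries of the same group agreed within sampling noise.

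Genes were named where they were among the 15 called genes that rose or fell most (mean log2 CPM of 1 or more), the 15 with no overlap and the smallest adjusted p, up to 5 of each of 40 lists, or a set of key genes. Further list members and other genes were named after their values were seen, and some genes that met these rules are not reported here. Members and lists were chosen with earlier results of these data known, and no list was tested as a set. Some listed genes were not found in the count table by their symbols and are in no count here. For example, 18 of 23 interferon signalling genes and 9 of 12 MHC class II genes were found. The fit was tested on simulated data first. Alternatives were DESeq2, limma-voom (limma 3.58.1), other scalings, filters, fold minimums, all 39 tumours in 1 fit, and fits without single tumours.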

Additional observations from a re-analysis of the deposited data

Results flagged for a closer look

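Each named gene on the log2(CPM + 1) scale, the total counts and both principal component scores were examined in each group for a tumour far from the other 9. The measure was the gap between the outermost tumour and its neighbour, divided by the range of the group (Dixon's ratio). Of 334 groups examined 43 were past the critical value for 10 tumours, and chance alone passes about 1 in 20 groups. PBS tumour 14 accounted for 39 of them, and since the genes move together these are not separate events.

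PBS tumour 14 was the highest of its group for antigen presentation genes, with ratios of B2m 0.708, H2-K1 0.773, H2-D1 0.654, Tap1 0.534, Psmb9 0.489, H2-Ab1 0.543, H2-Aa 0.520, H2-Eb1 0.511 and H2-DMa 0.659. It was highest for interferon-inducible, enzyme, checkpoint and serpin genes, at Batf2 0.548, Ccl2 0.539, Pdcd1lg2 0.511, Pdcd1 0.534, Nos2 0.706, Ido1 0.562, Acod1 0.471, Ass1 0.471, Serpina3g 0.486 and Serpina3f 0.469. Among myeloid genes the ratios were Cybb 0.544, Itgb2 0.613, Csf1r 0.478, Ccr2 0.524, Csf3r 0.501, Tarm1 0.510, Ly6i 0.603, Fcgr4 0.624, Fcgr3 0.532, Fcgr1 0.543, Clec7a 0.530 and Slamf8 0.469. It was also highest for Gzmd 0.592, Ncr1 0.535, Hsd11b1 0.524, Slc16a3 0.534 and Icam1 0.472, and on the first principal component, with a ratio of 0.487. The same tumour was the lowest of its group for Heyl 0.481 and Tek 0.477.

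PBS tumour 55 was highest for Col8a1, with a ratio of 0.503. ICT tumour 63 was highest for Vegfa and lowest for Pcdh18, with ratios of 0.517 and 0.620. ICT tumour 85 was lowest on the second principal component, at a score of -13.0 and a ratio of 0.504.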

How the results depend on the processing

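The 323 upregulated and 9 downregulated genes became 421 and 30 with DESeq2, 234 and 13 with limma-voom, 324 and 7 with DESeq2's size factors, 282 and 11 scaled by library size alone, 394 and 38 with no low-count filter, 268 and 1 with at least 10 counts in every tumour, and 370 and 11 with all 39 tumours in the fit. Without a fold minimum they were 1995 and 1012, and at a log2 minimum of 1.5 they were 98 and 1. Without tumours 63, 82 and 14 they were 201 and 12. Between series, 6 against 1 gave 9 and 0, 6 against 5 gave 4 and 1, 8 against 1 gave 98 and 2, and 8 against 5 gave 268 and 26, each with 5 tumours a group. Leaving out each tumour in turn gave 205 to 401 upregulated genes (fewest without ICT tumour 63, most without PBS tumour 14) and 5 to 16 downregulated genes (fewest without ICT tumour 81, most without ICT tumour 85). The cause of these shifts was not tested. The difference on the first component was 16.2 to 22.9 under its alternatives and passed in each.

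Of the 150 named genes that passed, 141 passed under every tool, filter and scaling, 144 in each of the 20 fits without 1 tumour, and 149 without tumours 63, 82 and 14, the exception being Ccl5. No passing gene changed sign, though each alternative used tumours on which these genes had been called. Cd8a and Cd4, which did not pass, went to -0.122 and -0.213 without those 3 tumours, and Cd4 ran from -0.00802 (without ICT tumour 82) to 0.262 when each tumour was left out in turn. No paired analysis was possible because the labels number the tumours without pairing them between treatments. Depth limited the test to 14155 of the 27238 genes with a count in these 20 tumours.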
